A study of Mus musculus with 24 samples.

Results

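UDP-glucuronosyltransferases (Ugt genes) and sulfotransferases (Sult genes) attach a water-soluble group to hormones, bile acids, drugs and food compounds, so that these can leave the body in bile or urine. Ugt enzymes sit in the membrane of the endoplasmic reticulum and, in the Ugt1 and Ugt2 families, transfer glucuronic acid from the sugar nucleotide UDP-glucuronic acid. The Ugt3a enzymes use other UDP-sugars, and Ugt8a adds galactose to ceramide in myelin-forming cells. Sult enzymes of the cytosol transfer sulfate from the donor PAPS. Liver is a main site of both reactions, and nuclear receptors that sense foreign compounds, among them Nr1i2 (PXR) and Nr1i3 (CAR), are known to control part of both families.

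All array probe sets were taken whose single gene symbol begins with Ugt or Sult and a digit. This gave 29 of 45037 probe sets, 14 for Ugt and 15 for Sult genes, which stand for 24 genes. The rule uses gene symbols only. A further 4 probe sets of these families carry several symbols, the shared Ugt1a gene complex among them, and were left out, so that Ugt1a enzymes are not described. Of the 29 probe sets, 22 (11 Ugt and 11 Sult, from 19 genes) passed the filter on low values, which asks that 6 or more of the 24 arrays exceed 3.147 on the log2 scale, the overall median.

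Liver RNA came from 24 female NMR-1 mice, 1 array each, in 4 groups of 6. The mice were 8 weeks old at the start and ate freely for 2 weeks. The pellet group stayed on the standard feed of its upbringing, the chimpanzee group received fruit, vegetables and plain yogurt, the cafeteria group cooked canteen meals and the fast food group only food of 1 restaurant chain. Cafeteria and fast food together are the human diets, with 12 mice. No engineered allele or drug is stated for any group. Each diet had 3 mice in each of 2 processing batches. No label ties a mouse to a litter, so litter could not enter the fits. The p-values set differences against the spread among these mice. A diet of whole foods differs from pellets in many components at once, which cannot be told apart here.

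Levels are log2 expression, on which a difference of 1 is 2-fold, and are compared only within a probe set. Differences carry the standard error (SE) of the limma fit with batch as covariate. They were called at a two-sided adjusted p under 0.05, adjusted over all 25541 probe sets tested.

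The hepatocyte markers (albumin and 5 others) averaged 12.12 to 12.55 in every mouse, and 0 of 6 were called in any comparison. Of 5 Kupffer cell markers 3 (Clec4f, Cd68 and Csf1r) were lower under the chimpanzee than the pellet diet, where 6.14% of all probe sets were lower. Adgre1 (-0.14) and Marco (0.37, in the opposite direction) were not called (limma adjusted p = 0.589 and 0.176). The list of 5 averaged 5.04 to 5.76 in chimpanzee mice and 5.47 to 6.10 in pellet mice. Markers of endothelium, stellate cells, cholangiocytes, lymphocytes and pancreas gave 0 calls. Of 2 intestinal markers tested, Fabp2 was higher under human than chimpanzee diets and Lgals4 higher under human diets than pellets. Of 5 pericentral hepatocyte markers, 1 was called against pellets in each comparison. Rhbg was lower under human diets (-0.30), with Glul, Oat, Cyp1a2 and Slc1a2 at -0.06, 0.24, -0.14 and 0.32. Slc1a2 was higher under the chimpanzee diet (0.66), with Glul, Oat, Cyp1a2 and Rhbg at 0.13, -0.36, -0.16 and -0.13. Of 3 periportal markers tested, Hal was lower and Pck1 higher in both comparisons with pellets. Cyp2f2 (-0.04 in both) was not called. Of all probe sets, 4.03% were called between human diets and pellets, 8.7% between chimpanzee diet and pellets and 0.767% between human and chimpanzee diets. The part of these cell types in the other results was not tested. In whole liver, fewer cells of a type and less RNA per cell cannot be told apart. Array quality also differed. The 90th percentile of an array was 6.51 ± 0.07 (SD, n = 12) in batch 1 and 6.05 ± 0.20 in batch 2. The 3′ minus 5′ difference of beta-actin, which grows as RNA degrades, was 1.08 ± 0.15 (SD, n = 6) under the chimpanzee diet, 0.75 ± 0.14 under pellets and 0.85 ± 0.11 (n = 12) under human diets. The same difference of pyruvate carboxylase was 3.54 ± 0.61, 3.11 ± 0.24 and 3.23 ± 0.45. Since the beta-actin difference varied with diet, a call lost with it as covariate cannot tell RNA quality from diet.

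Promoters of Sult1d1, Sult3a1 and Ugt2b37, which differed between diets, are shown first, because that of Ugt2b37 is close to those of 2 neighbouring genes. Sequences are from RefSeq (build GRCm38.p6), 250 bases upstream of the gene start, 5′ to 3′ on the gene's strand, and 21 of the 24 genes had one (24 windows, since some genes have several starts). The other 3 are Sult2a2, Sult4a1 and Ugt3a2. Capitals mark matches on either strand to motifs known to bind liver regulators. These were the nuclear receptor hexamer AGGTCA, its repeats AGGTCANAGGTCA and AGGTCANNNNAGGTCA (both contain the hexamer), the STAT motif TTCNNNGAA and the forkhead motif TGTTTAC. A match is a description of letters, not a site shown to be used. Sult1d1 lies between Sult1b1 and Sult1e1 beside the Ugt2 cluster of chromosome 5. Its window (chr5:87569007-87569256, minus strand) holds none of the motifs, and Sult3a1 (chr10:33857472-33857721, plus strand) holds the only STAT match of the 24 windows.
Sult1d1: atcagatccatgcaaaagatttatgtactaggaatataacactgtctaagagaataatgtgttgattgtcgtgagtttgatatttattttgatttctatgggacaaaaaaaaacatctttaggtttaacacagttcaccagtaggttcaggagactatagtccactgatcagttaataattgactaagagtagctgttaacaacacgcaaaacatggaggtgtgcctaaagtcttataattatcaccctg
Sult3a1: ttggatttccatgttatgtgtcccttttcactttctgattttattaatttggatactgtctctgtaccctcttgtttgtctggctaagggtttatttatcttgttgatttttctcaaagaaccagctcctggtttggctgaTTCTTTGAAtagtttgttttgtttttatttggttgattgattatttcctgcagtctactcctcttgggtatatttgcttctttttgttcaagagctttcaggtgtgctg
The next windows belong to Ugt2b37 (chr5:87254789-87255038), Ugt2b38 (chr5:87424204-87424453) and Ugt2b5 (chr5:87140341-87140590), all on the minus strand.
Ugt2b37: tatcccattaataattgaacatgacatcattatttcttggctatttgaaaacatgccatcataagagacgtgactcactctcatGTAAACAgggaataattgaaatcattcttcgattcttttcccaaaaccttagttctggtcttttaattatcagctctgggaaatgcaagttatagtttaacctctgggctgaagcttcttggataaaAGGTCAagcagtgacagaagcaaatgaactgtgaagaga
Ugt2b38: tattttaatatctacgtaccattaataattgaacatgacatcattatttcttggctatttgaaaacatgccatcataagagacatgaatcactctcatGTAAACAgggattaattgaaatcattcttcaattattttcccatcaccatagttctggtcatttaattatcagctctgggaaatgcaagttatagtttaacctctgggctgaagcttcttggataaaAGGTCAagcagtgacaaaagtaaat
Ugt2b5: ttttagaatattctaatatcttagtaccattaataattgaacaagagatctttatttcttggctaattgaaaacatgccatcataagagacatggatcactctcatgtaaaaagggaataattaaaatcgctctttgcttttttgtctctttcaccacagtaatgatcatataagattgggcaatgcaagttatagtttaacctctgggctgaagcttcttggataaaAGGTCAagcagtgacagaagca

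The Ugt2b37 and Ugt2b38 windows were 85.2% identical over the aligned columns (gaps included), Ugt2b5 and Ugt2b38 81.5% and Ugt2b5 and Ugt2b37 73%. All 3 carry the hexamer, 39 to 34 bases before the start in Ugt2b37, 25 to 20 in Ugt2b38 and 22 to 17 in Ugt2b5. Only Ugt2b37 and Ugt2b38 of these 3 hold the forkhead letters. The hexamer was present in 8 of the 24 windows and in 14% of 32817 promoter windows of the same length. The forkhead motif was in 3 of 24 against 3.16% of all, and the STAT motif in 1 of 24 against 7.01%. The repeats were in none of the 24 windows, against 0.0335% and 0.0152% of all.

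Against the pellet diet, Sult1d1 was the member that rose most. It encodes a sulfotransferase known to act on dopamine and related catechols. A pair of probe sets reads it, and both were higher under all 3 other diets. By 1418138_at the 6 pellet mice ran from 5.90 to 7.20 with a median of 6.59. Chimpanzee mice ran from 6.95 to 8.20 with a median of 7.61, cafeteria mice from 6.50 to 8.14 with 7.57, and fast food mice from 6.96 to 8.08 with 7.26. The pellet group is the lowest, and its upper mice overlap the lower mice of each other group. By 1448973_at the pellet mice lay between 7.82 and 8.74 (median 8.18). The chimpanzee mice lay between 8.63 and 9.62 (median 9.05), the cafeteria mice between 8.69 and 9.48 (8.86) and the fast food mice between 8.72 and 9.41 (8.85). Here 5 of 6 pellet mice lie below every mouse of the other diets.

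Human diets exceeded pellets by 0.91 ± 0.17 (SE) for 1418138_at, 1.88-fold with adjusted p = 0.00248, and by 0.75 ± 0.11 for 1448973_at, 1.69-fold with adjusted p = 0.000279 (limma, n = 12 and 6). The chimpanzee diet exceeded pellets by 1.04 ± 0.19 (2.06-fold, limma adjusted p = 0.000907) and 0.86 ± 0.13 (1.81-fold, adjusted p = 0.000122). Both comparisons share the 6 pellet mice. In the batches, 1418138_at differed by 0.81 and 1.01 for human diets and by 1.03 and 1.05 for the chimpanzee diet. Within either batch no chimpanzee mouse overlapped a pellet mouse by either probe set. Between human and chimpanzee diets Sult1d1 differed by -0.13 (95% interval -0.48 to 0.22) and -0.11 (-0.33 to 0.12), not past the threshold. With the beta-actin difference as a covariate, the chimpanzee excess was 0.64 (limma adjusted p = 0.336) and 0.72 (adjusted p = 0.0611) and lost its call, while that of human diets kept it. That covariate also cut the share of all probe sets called between chimpanzee diet and pellets from 8.7% to 1.23%. In batch 2 alone the chimpanzee calls were lost as well (adjusted p = 0.23 and 0.0602), and single batches kept the human call only for 1448973_at in batch 2. Over all probe sets, 0.125% were called between chimpanzee diet and pellets in batch 2 alone, against 6.56% in batch 1 alone.

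Its neighbours in the cluster did not share the call. Sult1b1, which sulfates thyroid hormones and phenols, had medians of 6.42 under pellets, 6.13 under chimpanzee, 6.34 under cafeteria and 6.70 under fast food diets. It differed by 0.03 ± 0.21 between human diets and pellets and by -0.49 ± 0.24 between chimpanzee and pellets (limma adjusted p = 0.987 and 0.267). Sult1e1, the estrogen sulfotransferase, stayed between 2.43 and 2.89 in all mice and did not pass the filter.

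Ugt2b37 fell under every other diet relative to pellets. It belongs to the Ugt2b subfamily, which glucuronidates steroids and foreign compounds. By 1449890_at the pellet mice ran from 3.62 to 4.87 with a median of 4.07. Chimpanzee mice ran from 2.74 to 4.14 (median 3.40), cafeteria mice from 2.83 to 4.00 (3.13) and fast food mice from 2.61 to 3.71 (3.00). The pellet mice are the highest group, and the upper mice of each other diet overlap them. The human diets were lower by 0.98 ± 0.20 on the log2 scale (1.97-fold, limma adjusted p = 0.00586), with -0.78 in batch 1 and -1.19 in batch 2, and no mice overlapped in batch 2. The chimpanzee diet was lower by 0.84 ± 0.24 (1.79-fold, limma adjusted p = 0.0318), with -0.78 and -0.90 in the batches. The level is close to the array's floor, with 15 of 24 arrays above 3.147, so the size of the change may be compressed. The chimpanzee call was lost with the beta-actin covariate (-0.55, limma adjusted p = 0.682), with batch left out (0.0999), without a filter on low values (0.0611), in either batch alone (0.126 and 0.557), without the 4 arrays of lowest 90th percentile (0.2), and on leaving out any of 8 single mice (adjusted p up to 0.0988). The human call was lost only in either batch alone (0.189 and 0.165).

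Neither neighbour with a similar promoter was called. Ugt2b5 ranged from 10.26 to 11.29 over all 24 mice. It differed by -0.06 ± 0.12 (human against pellet) and -0.01 ± 0.13 (chimpanzee against pellet), with 95% intervals of -0.31 to 0.18 and -0.28 to 0.25. Ugt2b38 ran from 2.73 to 3.49, passed the filter level in 5 arrays only and was not tested. Probes of such close copies may also read each other's transcripts. The test of a difference between these genes was not run.

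Sult3a1 was lower under the human diets. It encodes a sulfotransferase that acts on amines. By 1421669_at the cafeteria mice ran from 7.94 to 9.48 with a median of 8.25 and the fast food mice from 7.78 to 9.66 with 9.15. The chimpanzee mice ran from 8.79 upward (median 9.52) and the pellet mice between 9.15 and 10.07 (median 9.65). Of the 12 mice on human diets, 8 lie below the pellet range. The human diets were lower than pellets by 0.96 ± 0.27 (1.94-fold, limma adjusted p = 0.0479), by 0.92 in batch 2 and slightly more in batch 1. Against the chimpanzee diet the difference was -0.80 ± 0.28, which did not pass (adjusted p = 0.192), and chimpanzee minus pellet was -0.15 ± 0.28 (adjusted p = 0.836). The call lies at the threshold. It was lost on leaving out any of 11 single mice (limma adjusted p up to 0.134), with batch left out (0.107), without a filter on low values (0.096), with the beta-actin covariate (0.087), in either batch alone (0.255 and 0.623), and without the 4 arrays of lowest 90th percentile (0.0552).

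Ugt3a2, which conjugates with sugars other than glucuronic acid, rose under the chimpanzee diet. By 1423968_at all 6 chimpanzee mice lay between 9.96 and 10.17 (median 10.11), and all 6 pellet mice between 9.16 and 9.82 (median 9.42). The groups did not overlap. Cafeteria mice ran from 9.22 to 10.30 (median 9.98) and fast food mice from 9.18 to 10.17 (median 9.58), overlapping both of those ranges. The chimpanzee diet exceeded pellets by 0.62 ± 0.17 (1.54-fold, limma adjusted p = 0.02), by 0.87 in batch 1 and 0.38 in batch 2. Human minus pellet was 0.29 ± 0.16 (adjusted p = 0.498), and the F test over all 4 diets did not pass (adjusted p = 0.0833). The call was lost with the beta-actin covariate (0.36, adjusted p = 0.691), with batch left out (0.053), in batch 2 alone (adjusted p = 0.723), without the 4 arrays of lowest 90th percentile (0.0591), and without pellet batch 1 replicate 2 (0.0509) or 3 (0.0578).

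Its neighbour Ugt3a1 transfers N-acetylglucosamine to bile acids. Neither of its probe sets was called. By 1424493_s_at the medians were 7.82 (pellet), 7.72 (chimpanzee), 8.05 (cafeteria) and 8.20 (fast food). Chimpanzee minus pellet was -0.05 ± 0.15, with a 95% interval of -0.35 to 0.25. Human minus chimpanzee was 0.38 ± 0.12 (limma adjusted p = 0.157), the smallest adjusted p of any member in that comparison, and 1451373_at gave 0.20 ± 0.10. Without cafeteria batch 2 replicate 3, whose array had the lowest 90th percentile, both Ugt3a1 probe sets passed.

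**Figure D1:**
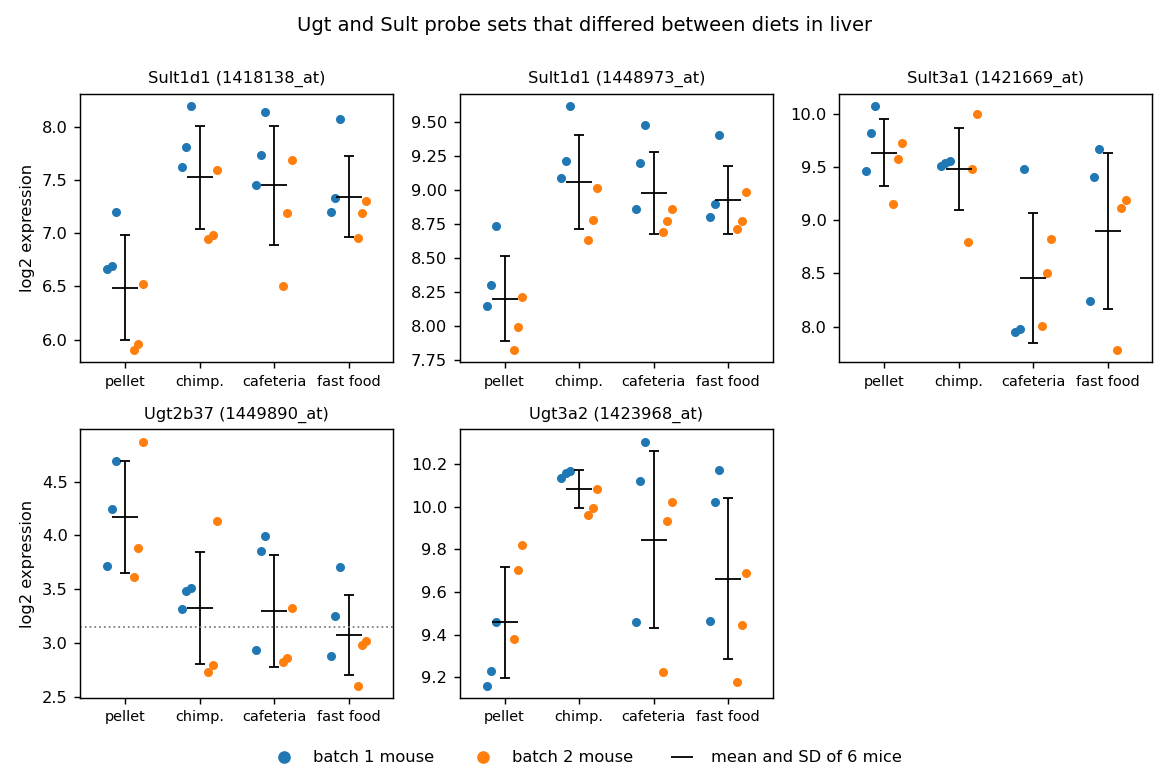
Log2 expression (vertical axis) of the 5 called probe sets in each mouse by diet, coloured by batch, with the mean and SD per diet in black and a dotted line for the filter level of 3.147 in the Ugt2b37 panel. Pellet mice are lowest for both Sult1d1 probe sets and highest for Ugt2b37, and the chimpanzee mice of Ugt3a2 lie between 9.96 and 10.17.

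Counted together, 4 of 22 tested members (18.2%) were called between human diets and pellets, 2 higher and 2 lower. Over all probe sets tested, 4.03% were called in that comparison, 1.68% higher and 2.35% lower. The median difference was 0.09 for members and -0.00327 for all probe sets. Between the chimpanzee diet and pellets, 3 members were higher and 1 lower (18.2%), where 8.7% of all were called, 2.56% higher and 6.14% lower. The members' median was -0.02, that of all 0.00135. The F test over the 4 diets called 4 of 22 members and 7.22% of all. Since Sult1d1 gives 2 of the 4 in each comparison, the calls stand for 3 genes each time. The human count ran from 0 in batch 1 alone (2.44% of all probe sets called) to 8 after quantile normalization (6.96% of all). The chimpanzee count ran from 0 with the beta-actin covariate, where 1.23% of all were called, to 5 after quantile normalization (11.1% of all).

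Between human and chimpanzee diets, 0 of 22 members were called by limma, against 0.767% of all probe sets. At an unadjusted p under 0.05 there were 6 of 22 members and 3359 of 25541 probe sets. The estimates were split evenly, 11 above and 11 below 0, from -0.80 for Sult3a1 to 0.52 for Sult1b1. The largest interval belongs to Sult2a2 (-1.61 to 1.64), so its null result limits little. For Ugt2b36, an enzyme with one of the narrowest intervals, the difference was 0.08 (-0.10 to 0.26). Cafeteria and fast food diets differed in 0 of 22 members, and 0.0235% of all were called. The smallest adjusted p among members was 0.799, and 1 member against 1318 of all probe sets had an unadjusted p under 0.05.

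**Figure D2:**
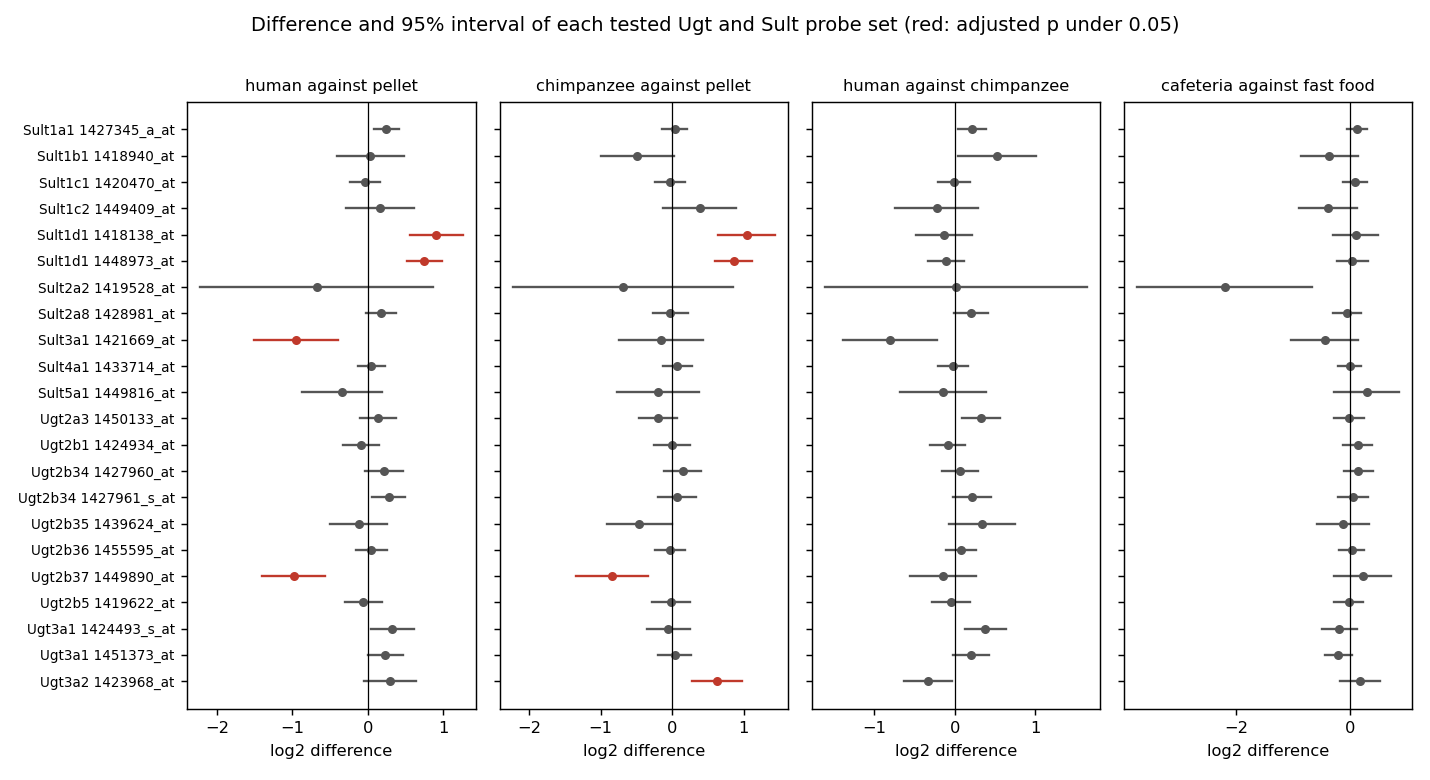
Log2 difference (horizontal axes, scaled per panel) with its 95% interval for each of the 22 tested probe sets in 4 comparisons, red where the adjusted p is under 0.05. Sult1d1 and Ugt2b37 are red in both pellet panels, Sult3a1 in the human panel and Ugt3a2 in the chimpanzee panel, while the other 2 panels hold no red point.

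Most other members that passed the filter had high values, and none was called in the main fits. Sult1a1, the phenol sulfotransferase, had medians of 10.55 (pellet), 10.50 (chimpanzee), 10.86 (cafeteria) and 10.74 (fast food). Human minus pellet was 0.25 ± 0.08 (limma adjusted p = 0.0991) and human minus chimpanzee 0.21 ± 0.08 (adjusted p = 0.258). The difference from pellets passed with cyclic loess, quantile normalization, the 90th percentile as covariate or array weights. It also passed by an adaptation of the study's procedure and without the 4 arrays of lowest 90th percentile. In these settings 6.02% to 8.88% of all probe sets were called. Its spread among mice was the smallest of all tested members, with an SD of 0.142 after diet and batch.

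Sult2a8, which sulfates bile acids, had medians of 10.12 (pellet), 10.08 (chimpanzee), 10.28 (cafeteria) and 10.24 (fast food), and human minus pellet was 0.18 ± 0.10 (limma adjusted p = 0.472). Ugt2a3 gave 0.33 ± 0.11 for human minus chimpanzee (adjusted p = 0.189). Ugt2b35 gave -0.46 ± 0.22 for chimpanzee minus pellet (adjusted p = 0.239). Of the steroid-conjugating Ugt2b1 and Ugt2b36, the differences from pellets stayed between -0.13 and 0.12 in every batch. Both Ugt2b34 probe sets had positive estimates against pellets, of 0.22 and 0.28 for human diets (adjusted p = 0.481 and 0.189) and 0.15 and 0.07 for the chimpanzee diet. None of these differences was called in the main fits. Ugt2b34 by 1427961_s_at passed between human diets and pellets with cyclic loess, quantile normalization, array weights or without the 4 arrays of lowest 90th percentile. In these settings 6.95% to 8.05% of all probe sets were called.

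Sult5a1 had medians of 6.17 (pellet), 5.92 (chimpanzee), 5.84 (cafeteria) and 5.48 (fast food), with human minus pellet at -0.35 ± 0.25 (limma adjusted p = 0.687). Sult1c2 gave 0.38 ± 0.25 for chimpanzee minus pellet (adjusted p = 0.422). Sult4a1, which is mainly a brain protein, lay between 3.24 and 4.12 by 1433714_at and differed by at most 0.07 between a diet and pellets. Sult1c1 was above the filter level in 7 arrays only. The 7 probe sets that were not tested stayed low in every diet. They read Sult1e1, Sult2b1 (a cholesterol sulfotransferase of skin), Sult6b1, Ugt2b38, Ugt8a by both of its probe sets and Sult4a1 by 1421606_a_at. Sult6b1 lay between 2.55 and 2.86, Sult2b1 between 2.61 and 3.15, and the higher Ugt8a probe set between 2.57 and 3.56.

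Sult2a2 stood apart by its spread between mice on the same diet, a feature picked out after its values were seen. Sult2a enzymes sulfate bile acids and hydroxysteroids. By 1419528_at the cafeteria mice alone ran from 3.05 to 9.52 with a median of 5.74. Pellet mice ran from 5.45 to 8.87 (median 8.37), chimpanzee mice from 5.85 to 8.91 (7.15) and fast food mice from 6.81 to 9.28 (8.31). All 4 diets overlap over a wide range. After diet and batch its SD among mice was 1.43, against a median of 0.182 over all tested probe sets, and only 1 of the 25541 had a larger SD. Next among the members were Sult3a1 (0.539) and Sult5a1 (0.528).

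Cafeteria minus fast food was -2.20 ± 0.74, a ratio of 4.60, and did not pass (limma adjusted p = 0.799). In batch 2 the 3 cafeteria mice did not overlap the 3 fast food mice, and in batch 1 they did. The lowest mouse, cafeteria batch 2 replicate 3, had the array of lowest 90th percentile (5.67). Without it the SD was 1.29, and in batches 1 and 2 alone it was 1.23 and 1.39, with 2 probe sets above it each time. RefSeq lists 8 protein-coding Sult2a genes, of which 2 have a probe set among the members, and the probes may read several of them together. Sult2a8 had an SD of 0.212.

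**Figure D3:**
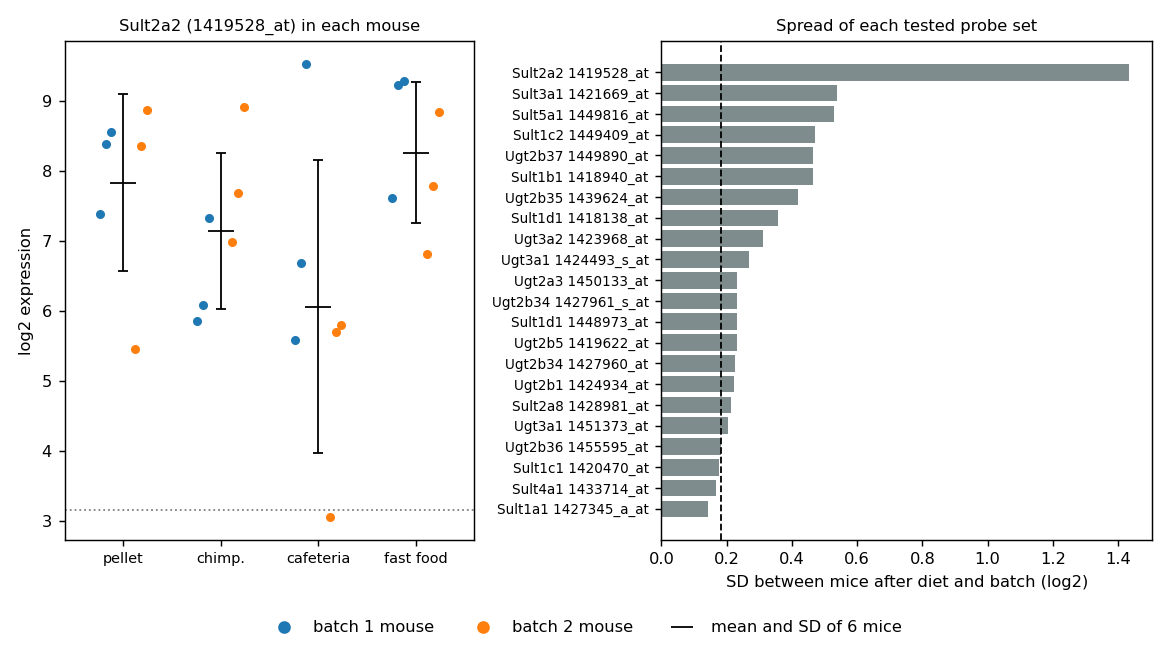
Left, log2 expression of Sult2a2 in each mouse by diet, coloured by batch, with the mean and SD of 6 mice and a dotted line at the filter level of 3.147. Right, the SD between mice after diet and batch (log2) for each of the 22 tested probe sets, with a dashed line at the median of all tested probe sets (0.182); Sult2a2 at 1.43 is the longest bar.

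Conjugation also needs activated donors, export and regulators. Genes of these steps were followed from lists made for this purpose, chosen with earlier results of these data known. Of 11 genes that supply or recycle UDP-glucuronic acid and sulfate donors, 6 were lower and 0 higher under the chimpanzee diet than pellets, with a list median of -0.38, where 6.14% of all probe sets were lower and 2.56% higher. Of these 6, only Papss1 kept its call with the beta-actin covariate. Human diets against pellets gave 1 higher and 2 lower (1.68% and 2.35% of all), with a median of -0.06, and human against chimpanzee diets 1 higher (0.767% of all called).

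Papss1, one of the 2 synthases of PAPS, had medians of 5.13 (pellet), 3.89 (chimpanzee), 4.16 (cafeteria) and 4.76 (fast food). Pellet mice (4.64 to 6.19) and chimpanzee mice (3.48 to 4.53) did not overlap. The differences from pellets were -1.31 ± 0.15 for the chimpanzee diet and -0.83 ± 0.17 for human diets (limma adjusted p = 3.84e-06 and 0.00695). Papss2, the other synthase and the main form of liver, went the other way under human diets. Its medians were 9.14 (pellet), 9.20 (chimpanzee), 9.67 (cafeteria) and 9.53 (fast food), with human minus pellet at 0.46 ± 0.10 (adjusted p = 0.0098) and chimpanzee minus pellet at 0.09 ± 0.11 (adjusted p = 0.731).

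Ugdh, which makes UDP-glucuronic acid, had medians of 8.39 (pellet), 7.59 (chimpanzee), 8.07 (cafeteria) and 7.81 (fast food). It was lower under the chimpanzee diet than pellets by 0.93 ± 0.19 on the log2 scale (limma adjusted p = 0.00226). Suox, the sulfite oxidase that forms sulfate, had medians of 7.73 (pellet), 7.14 (chimpanzee), 7.90 (cafeteria) and 8.11 (fast food). Human exceeded chimpanzee diets by 0.76 ± 0.14 (adjusted p = 0.0109), and chimpanzee minus pellet was -0.61 ± 0.15 (adjusted p = 0.00982). With the beta-actin covariate Papss1 kept its chimpanzee call, while Ugdh (-0.57, adjusted p = 0.439) and Suox (0.67 for human minus chimpanzee and -0.53 for chimpanzee minus pellet, adjusted p = 0.417 and 0.35) lost theirs, as did Papss2 under human diets (0.40, adjusted p = 0.0505).

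Of 10 regulators tested, 4 were higher and 1 lower under the chimpanzee diet than pellets (2.56% and 6.14% of all probe sets), and 2 were higher under human diets (1.68% of all). Regulators with a lower mean under the chimpanzee diet were Nfe2l2 (6.65 against 7.21 under pellets), Keap1 (5.89 against 6.08) and Ahr (6.26 against 6.29). Nr1i3 (CAR) ran from 7.61 to 8.11 in pellet mice, 8.52 to 9.14 in chimpanzee mice, 7.98 to 9.06 in cafeteria mice and 8.26 to 9.39 in fast food mice. Of the other diets, only cafeteria mice reached into the pellet range. The differences from pellets were 1.05 ± 0.13 for the chimpanzee diet and 0.94 ± 0.12 for human diets (limma adjusted p = 7.57e-06 and 7.79e-05), and both kept the call with the beta-actin covariate. Nr1i2 (PXR) rose by 0.67 ± 0.12 and 0.54 ± 0.12 (adjusted p = 0.000679 and 0.0127). Hnf4a, a factor of hepatocyte identity, and Rxra, the partner of both receptors, rose under the chimpanzee diet by 0.59 ± 0.11 and 0.47 ± 0.11 (adjusted p = 0.000914 and 0.00912). Of these, Nr1i2, Hnf4a and Rxra lost the chimpanzee call with the beta-actin covariate (0.60, 0.48 and 0.23, adjusted p = 0.115, 0.179 and 0.71), as did Nr1i2 its human call (0.49, adjusted p = 0.0571).

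**Figure D4:**
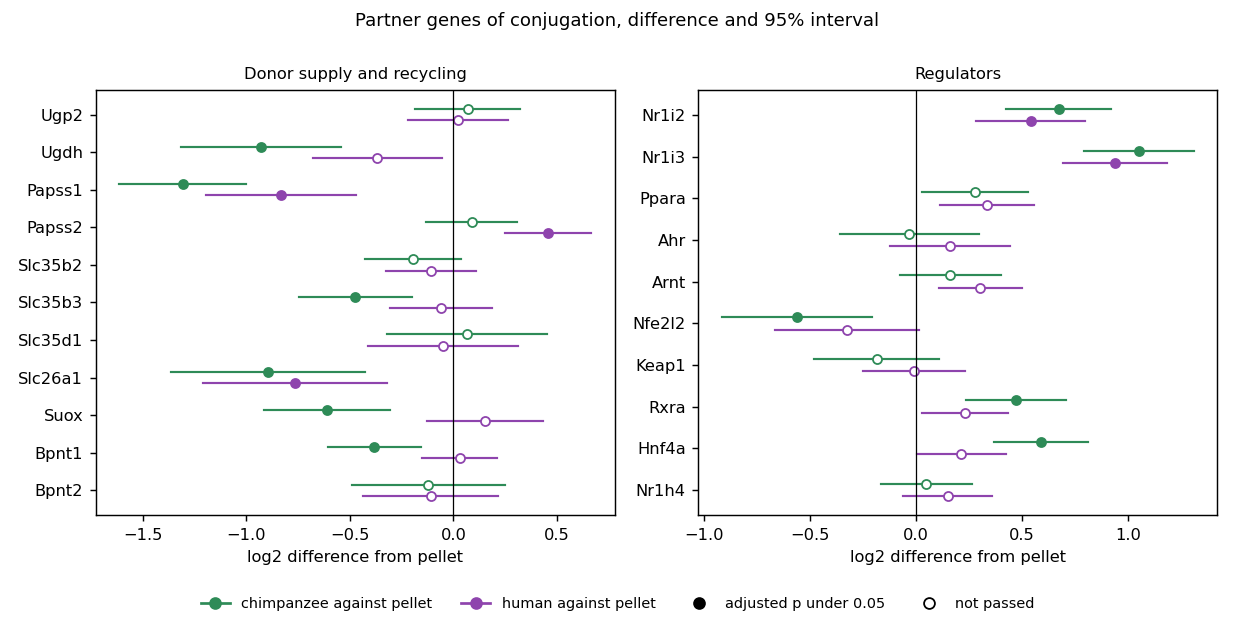
Log2 difference from pellet with its 95% interval for the donor supply genes (left) and the regulators (right), green for the chimpanzee and purple for the human diets, filled where the adjusted p is under 0.05. Papss1 lies left of 0 under both, at -1.31 and -0.83, and Nr1i3 right of 0 under both, at 1.05 and 0.94.

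Known target genes of the regulators did not follow 1 pattern. Cyp2b10, the standard target of Nr1i3, ran from 4.27 to 4.61 in chimpanzee mice. In pellet mice it ran from 5.95 to 7.99, in cafeteria mice from 6.16 to 7.60 and in fast food mice from 6.04 to 7.28. No chimpanzee mouse overlapped any other mouse. It was lower under the chimpanzee diet than pellets by 2.67 ± 0.25 (limma adjusted p = 3.48e-07), while human minus pellet was -0.29 ± 0.24 (adjusted p = 0.748). Nr1i3 and Cyp2b10 moved in opposite directions under the chimpanzee diet.

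Cyp4a14, a target of the fatty acid receptor Ppara, had medians of 3.21 (pellet), 6.57 (chimpanzee), 8.41 (cafeteria) and 9.74 (fast food). It rose by 5.65 ± 0.37 under human diets and by 2.93 ± 0.41 under the chimpanzee diet (limma adjusted p = 6.89e-08 and 6.12e-05). Nqo1, a target of Nfe2l2, had medians of 3.53 (pellet), 3.12 (chimpanzee), 3.24 (cafeteria) and 3.20 (fast food). These lie close to the filter level of 3.147, so the size of a change may be compressed. It was lower than under pellets by 0.26 ± 0.07 under human diets and 0.36 ± 0.09 under the chimpanzee diet (limma adjusted p = 0.0447 and 0.0159). Both calls were lost with the beta-actin covariate (-0.23 and -0.38, adjusted p = 0.157 and 0.262), and the human call on leaving out any of 15 single mice. Cyp3a11 and Cyp1a2, also tested, were not called in any comparison. In all, 2 of 5 target genes were higher under human than chimpanzee diets, 1 was higher and 1 lower under human diets than pellets, and 1 was higher and 2 lower under the chimpanzee diet than pellets. Of all probe sets, 0.767%, 4.03% and 8.7% were called in these comparisons.

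Exporters, enzymes that undo conjugation and other conjugating enzymes gave at most 1 call per list in each comparison, the F test aside. Of all probe sets, 0.767% were called between human and chimpanzee diets and 8.7% between the chimpanzee diet and pellets. Of 3 exporters tested, Abcc3, which moves glucuronides into blood, was higher under human than chimpanzee diets by 0.74 ± 0.15 (limma adjusted p = 0.0241), a call lost with the beta-actin covariate (0.50, adjusted p = 0.657), in either batch alone, and without any of 4 single chimpanzee mice. Abcg2 passed only the F test over 4 diets (adjusted p = 0.0487). Of 3 enzymes that remove conjugated groups, Arsb, a lysosomal sulfatase, was lower under the chimpanzee diet than pellets by 0.44 ± 0.11 (adjusted p = 0.0135), with the beta-actin covariate at -0.49 (adjusted p = 0.189). Among 7 other conjugating enzymes, the methyltransferase Tpmt was higher under human than chimpanzee diets by 0.63 ± 0.14 (adjusted p = 0.0324). The acetyltransferase Nat2 was lower under the chimpanzee diet than pellets by 0.45 ± 0.13 (adjusted p = 0.0306). With the beta-actin covariate both were past the threshold no longer (0.39 and -0.44, adjusted p = 0.748 and 0.417), and 8 and 6 single mice decided them. With this covariate, 15 rather than 196 of all probe sets were called between human and chimpanzee diets. The beta-actin difference was itself highest on average under the chimpanzee diet, so these lost calls cannot tell RNA quality from diet. The part that RNA quality plays in the chimpanzee differences was not tested beyond this covariate.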

How the data were processed

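Liver RNA of 24 mice was hybridised to Affymetrix mouse arrays, 1 per mouse. The authors deposited log2 expression values made with the rma procedure of the affy package (background correction, quantile normalization, probe set summary). Not given in the sources used here are the package version and whether brain arrays shared the normalization. Brain arrays were not analysed here. Of 45101 probe sets, 64 controls were left out. The platform annotation, which can be old, named 34945 others by 1 gene, 932 by several and 9160 by none. The Entrez identifiers of all 29 members were found in RefSeq with the same symbol.

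Probe sets exceeding the overall median (3.147) on 6 or more arrays were tested, 25541 of them, with limma 3.58.1 in R 4.3.3 (lmFit, eBayes, two-sided, Benjamini-Hochberg over all tested). Diet and batch came from the sample titles, and batch was a covariate. Human diets were compared in fits of 18 mice, pairs of the other diets and the F test within 1 fit of 24. The fits were tested on simulated data. A partner or marker gene was read by its probe set of highest mean. Every called member was named, as was the other member of highest mean value in each subfamily (a naming rule, not a ranking of genes), and up to 4 called partner genes per list by smallest F test p. The members and lists were chosen with earlier results of these data known. Alternatives covered normalization, filters, batch, array quality, gene-level values, an adaptation of the methods' procedure and each mouse left out. The adaptation was an unmoderated linear model called at 0.01 with no adjustment, and it left out any probe set whose interaction of diet and batch had p under 0.05. It kept the median filter in place of the study's detection calls, and used neither its Tukey test nor 1 smallest p per gene. The deposited arrays do not share 1 distribution (90th percentiles 5.67 to 6.62), and renewed quantile normalization raised the calls between human and chimpanzee diets from 196 to 587 over all probe sets. Precision is limited by the number of arrays.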

Additional observations from a re-analysis of the deposited data

Results flagged for a closer look

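In groups of 6 mice, the gap of the most extreme mouse to the next was set against Dixon's 95% critical value, which chance passes in about 1 of 20 groups. Of 88 groups (22 probe sets in 4 diets), 2 passed. Sult1d1 by 1418138_at was 8.08 in fast food batch 1 replicate 3, above the next mouse at 7.34, a gap of 0.665 of the group's range. Ugt2b34 by 1427961_s_at was 9.05 in fast food batch 2 replicate 2, below the next mouse at 9.69, a gap of 0.683 of the range.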

How the results depend on the processing

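Each count of members and partner genes, and each named call of theirs between diets, was recomputed under up to 14 other settings and with each mouse left out, and no named call changed direction. Marker calls and the F test call of Abcg2 were not recomputed. The settings for partner genes, and the one without the 4 arrays of lowest 90th percentile, were chosen after seeing the data. Members called between human diets and pellets (4) numbered 0 in batch 1 alone, 1 in batch 2 alone, 7 with cyclic loess, the 90th percentile as covariate or array weights, and 8 with quantile normalization. These larger counts held all 4 members, and each added Sult1a1 and Ugt3a1 by 1451373_at. Ugt2b34 by 1427961_s_at was added with cyclic loess, array weights or quantile normalization. Ugt3a1 by 1424493_s_at was added with the 90th percentile or quantile normalization. Over all probe sets the shares called were 2.44% and 0.114% in batches 1 and 2 alone and 6.96% with quantile normalization. Leaving out 1 mouse gave 3 to 5. Between chimpanzee diet and pellets (4) there were 2 without batch in the fit or without the 4 arrays, and 0 in batch 2 alone or with the beta-actin covariate. The count was 5 with cyclic loess, quantile normalization or the 90th percentile as covariate, where 11.1% to 13.1% of all probe sets were called. In batch 2 alone 0.125% of all probe sets were called, and with the beta-actin covariate 1.23%. Leaving out 1 mouse gave 2 to 4, with 2 without pellet batch 1 replicate 3. Between human and chimpanzee diets (0) array weights gave 1, and leaving out 1 mouse 0 to 2, the 2 without cafeteria batch 2 replicate 3. The F test (4) gave 1 without batch, 0 in either batch alone, 7 with loess or quantile normalization, and 8 with the 90th percentile or array weights. Leaving out 1 mouse gave 3 to 7, with 7 without cafeteria batch 2 replicate 3. Cafeteria against fast food stayed at 0 throughout.

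Partner genes called between human and chimpanzee diets (5) numbered 2 without batch, 3 and 0 in batches 1 and 2 alone, 10 with loess or quantile normalization, 8 with the 90th percentile, 15 with array weights, 1 with the beta-actin covariate and 13 by the methods' procedure. Leaving out 1 mouse gave 3 to 9. Each of chimpanzee batch 1 replicate 2, batch 2 replicate 1 and batch 2 replicate 2 left out gave 3, and fast food batch 2 replicate 2 or cafeteria batch 2 replicate 3 gave 9. Between human diets and pellets (7) there were 2 without batch, 3 and 1 in the batches alone, 12 with loess, 13 with quantile normalization, the 90th percentile, array weights or without the 4 arrays, and 11 by the methods' procedure. Leaving out 1 mouse gave 5 to 10. Between chimpanzee diet and pellets (16) there were 7 without batch, 1 in batch 2 alone and 4 with the beta-actin covariate (Papss1, Nr1i3, Cyp2b10 and Cyp4a14), and 12 to 18 without 1 mouse. The F test (16) gave 6 without batch, 9 and 1 in the batches alone and 7 with the beta-actin covariate, and 13 to 21 without 1 mouse. Cafeteria against fast food (0) gave 1 by the methods' procedure and 0 to 1 without 1 mouse, the 1 without fast food batch 2 replicate 2. The causes were not tested. A single batch holds fewer mice, and the batches differed with equal numbers of mice. Over all probe sets, batch 1 alone gave 6.56% and batch 2 alone 0.125% called between chimpanzee diet and pellets.

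The labels do not say that equal replicate numbers pair the mice, and the main fits did not pair them. The paper states that littermates were spread evenly over the diet groups. Deviations of same-numbered mice correlated over 0.1 in 12 of 36 pairs, from -0.64 to 0.42. These were not compared with differently numbered mice, so they do not settle whether a pairing exists. With the replicate block the member counts were 4 between human diets and pellets, 4 between chimpanzee diet and pellets, and 4 by the F test. Levels near 3.147 are limited by array background.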
